A study of Mus musculus with 12 samples.

Results

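The genes described here were transiently higher in spheroids at 24 h. They were chosen by their own time course in these libraries. For each gene the median of log2(TPM + 1) over the 4 libraries of a time point was taken, where TPM is an expression level scaled for transcript length and library size, so that levels of different genes can be set side by side. A protein-coding gene was a member when its 24 h median stood at least 0.7 above both the 0 h and the 48 h median and its 24 h median TPM was 5 or more. This selected 50 genes out of 9592 protein-coding genes that reached 5 TPM at 24 h (0.521%) and 22013 in the tables. The height of a peak is here the smaller of the 2 differences, on the log2(TPM + 1) scale. Heights, and the differences between time points, chose the members and are given as a description with no test.

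The samples were WT and CIDEA KO mouse ESCs and spheroids, with 2 libraries in each of 6 groups (12 libraries). WT cells were the parental R1 line. All KO libraries came from one subclone (19.7), in which the whole Cidea locus had been deleted with CRISPR-Cas9, so the genotype and other differences of that clone cannot be told apart. Cells at 0 h were ESCs kept in serum with LIF, the cytokine that sustains self-renewal. Cells at 24 h and 48 h were spheroids. By the study's methods, cells for molecular work were seeded on a Matrigel coat, in medium with added Matrigel and without LIF. That medium held more serum than the routine ESC medium. The time, the gel, the serum dose and the loss of LIF therefore changed together in both genotypes. Cidea itself was at 0 counts in all 6 KO libraries and at 20 to 117 estimated counts in the 6 WT libraries.

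During this transition ESCs leave naive pluripotency, in which LIF and BMP signals hold differentiation back, and pass through a formative stage towards a polarised epithelium around a lumen. BMP signals act through SMAD transcription factors, whose classical targets are the Id genes, inhibitors of the helix-loop-helix factors that drive lineage programmes. In a bulk library, fewer cells expressing a gene and less RNA of it per cell cannot be told apart.

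The summed TPM of 10 pluripotency markers ranged from 6601 to 7475 at 0 h, 6053 to 6430 at 24 h and 4191 to 4685 at 48 h, and that of 10 formative and primed markers from 169 to 208, 566 to 772 and 1135 to 1189. Among the other lists, 14 primitive endoderm markers summed to 35.9 to 70.7 TPM at 24 h against 52.1 to 63.6 at 0 h, and 9 mesoderm and streak markers to at most 22.2 TPM in any library. Mitochondrially encoded RNA took 36131 to 41428 TPM in the 24 h libraries, below all 0 h libraries (41835 to 61700) and all 48 h libraries (54591 to 67239), so this share moved with the same time point as the members and its part in their peaks was not tested. Library depth was 29 to 38.5 M estimated counts. One library, KO replicate 1 at 24 h, stood apart with 15185 genes detected at equal depth where the other 11 had 17329 to 19301. Of the 50 members, 24 had their highest value in that library, while 33.1% of all protein-coding genes at 5 TPM had their highest 24 h value there. Without it 34 of the 50 met the rule again.

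The promoters of the members can be read from RefSeq windows on GRCm38.p6, 250 bases before to 50 bases after each annotated start, which matched 32 members with 41 windows. These were compared with 9846 windows of 7666 protein-coding genes at 5 TPM. The TATA box letters TATAAA, on either strand, were in 8 of the 41 member windows (19.5%) and in 6.40% of the comparison windows. Near the usual place of a TATA box, about 30 bases before the start, they lay on the gene's own strand in Cyp1a1 and Reg2 (position -30) and on the opposite strand in Smyd1 (-28). In the other 5 they lay elsewhere, in Arhgdib (-234 and -219) and Meis2 (-152) on the gene's own strand and in Ddr2 (-185), Slc4a5 (-127) and Zfp428 (15 bases after the start) on the opposite strand. GC box letters GGGCGG were in 16 (39.02%) against 65.3%, and ETS letters CCGGAA in 3 (7.32%) against 30.3%. The member windows held a median of 8 CpG dinucleotides against 21, and a median GC content of 55.3% against 61.3%. Over all 20147 promoter windows searched, the motif shares were nearer to those of the members. They were 12.1% for TATAAA, 47.8% for GGGCGG and 19.2% for CCGGAA. These are descriptions of letters, windows of the same gene are not independent, and no test was made.

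Of these, 5 windows are shown from 120 bases before the start to 30 bases from the start on, because they carry these contrasts. Capitals mark the letters of any of the 12 motifs searched on both strands. TATAAA in the first 2 begins 30 bases before the start, in Smyd1 it lies on the opposite strand (TTTATA), and the other capitals there are CTTTGAT (the TCF/LEF letters) in Reg2 and ATTGG in Smyd1, which reads as the CCAAT box on the other strand. Sertad1 and Dpf1 carry GGGCGG or its reverse CCGCCC and many CpG, with CAGGTG (an E-box) in Sertad1 and ATTGG in Dpf1. No motifs overlap within them. The windows lie at chr9:57697493-57697642, plus strand, at chr6:78405035-78405184, plus strand, at chr6:71262252-71262401, minus strand, at chr7:27486833-27486982, plus strand and at chr7:29303885-29304034, plus strand.
Cyp1a1: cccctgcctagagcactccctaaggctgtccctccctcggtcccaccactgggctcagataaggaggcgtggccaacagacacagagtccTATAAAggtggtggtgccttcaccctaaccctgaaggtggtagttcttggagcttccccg
Reg2: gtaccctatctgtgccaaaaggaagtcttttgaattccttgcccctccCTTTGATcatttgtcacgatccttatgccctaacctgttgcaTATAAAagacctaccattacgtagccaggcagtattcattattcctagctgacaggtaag
Smyd1: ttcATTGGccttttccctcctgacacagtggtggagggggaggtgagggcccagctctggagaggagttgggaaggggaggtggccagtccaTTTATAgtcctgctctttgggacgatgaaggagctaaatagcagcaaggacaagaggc
Sertad1: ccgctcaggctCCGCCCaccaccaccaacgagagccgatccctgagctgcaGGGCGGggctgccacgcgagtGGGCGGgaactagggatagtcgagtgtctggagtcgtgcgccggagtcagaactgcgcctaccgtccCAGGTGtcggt
Dpf1: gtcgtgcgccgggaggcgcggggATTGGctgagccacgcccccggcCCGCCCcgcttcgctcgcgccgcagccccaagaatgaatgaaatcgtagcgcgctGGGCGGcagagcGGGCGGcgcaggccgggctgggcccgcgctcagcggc

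Among the other motifs searched, CCAAT was in 31.7% of member windows and 38.8% of the comparison windows, GGAATG (TEAD) in 24.4% and 11.7%, CAGGTG (bound by ZEB and SNAI factors) in 26.8% and 17.3%, and TAATCC (OTX) in 9.76% and 5.54%. CACGTG (MYC and USF) was in 7.32% and 10.5%, CTTTGAT in 7.32% and 2.47%, TGACGT (part of the cAMP response element) in 4.88% and 12.1%, and the octamer ATGCAAAT in 4.88% and 1.18%. TGANTCA (AP-1) was in 0 of the 41 windows and in 4.30% of the comparison windows. With 41 windows each further match moves a share by more than 2 percentage points.

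Member heights ran from 0.70 to 1.95 with a median of 0.84. The 24 h median stood 0.73 to 2.59 above the 0 h median (median 1.14) and 0.70 to 3.49 above the 48 h median (median 0.95). The members were on the whole lowly expressed. Their median level at 24 h was 13.9 TPM against 27.9 TPM over all protein-coding genes at 5 TPM, and 21 of the 50 (42.0%) were under 10 TPM where 17.3% of all were. They lay on 18 chromosomes.

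**Figure D1:**
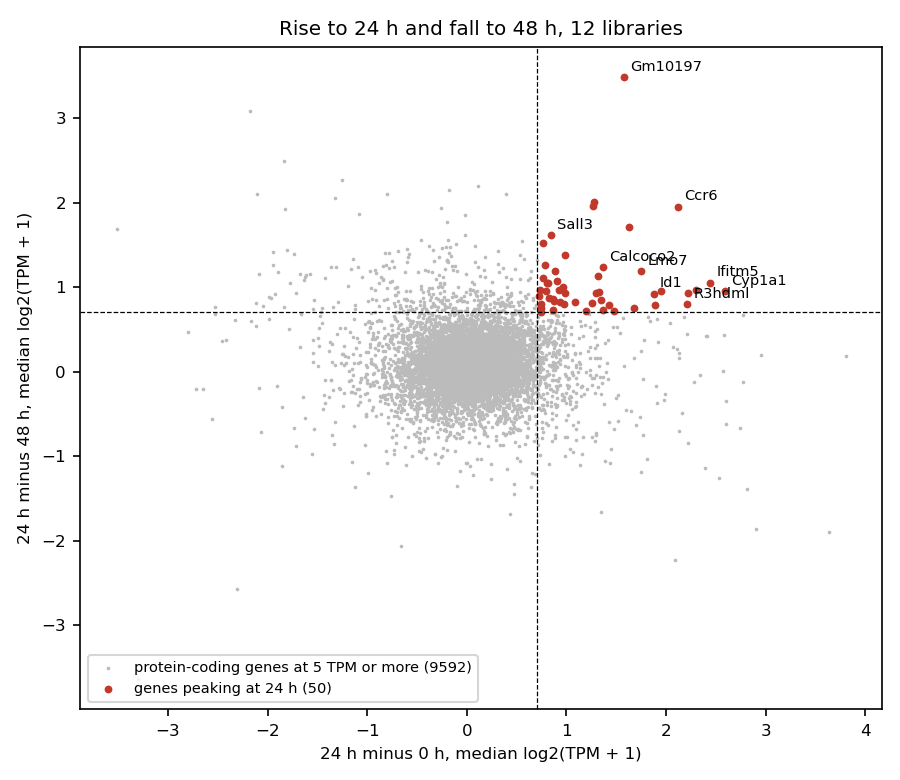
Each point is a protein-coding gene at 5 TPM or more at 24 h, placed by its 24 h minus 0 h difference (horizontal) and its 24 h minus 48 h difference (vertical), both in median log2(TPM + 1) over 4 libraries, with dashed lines at 0.7. The 50 members in red fill the upper right corner by construction, most of them close to the lines, and 9 of them had a height of 1 or more.

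Not every member separated the time points library by library. For 28 of the 50, all 4 libraries at 24 h were above all other 8 libraries in TPM. Over all protein-coding genes at 5 TPM the share was 3.98%, which is printed for scale only since the rule used the same difference. On CPM (counts scaled for depth but not for length) 25 members separated, with 3.63% over all genes. Without KO replicate 1 at 24 h, 31 members separated in TPM. In the edgeR fit 28 members were called both higher at 24 h than at 0 h and lower at 48 h than at 24 h, where 2.34% of all tested genes were, and 12 members were called in neither step. These steps are the differences that chose the members, so the counts restate the selection and nothing is read from them.

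**Figure D2:**
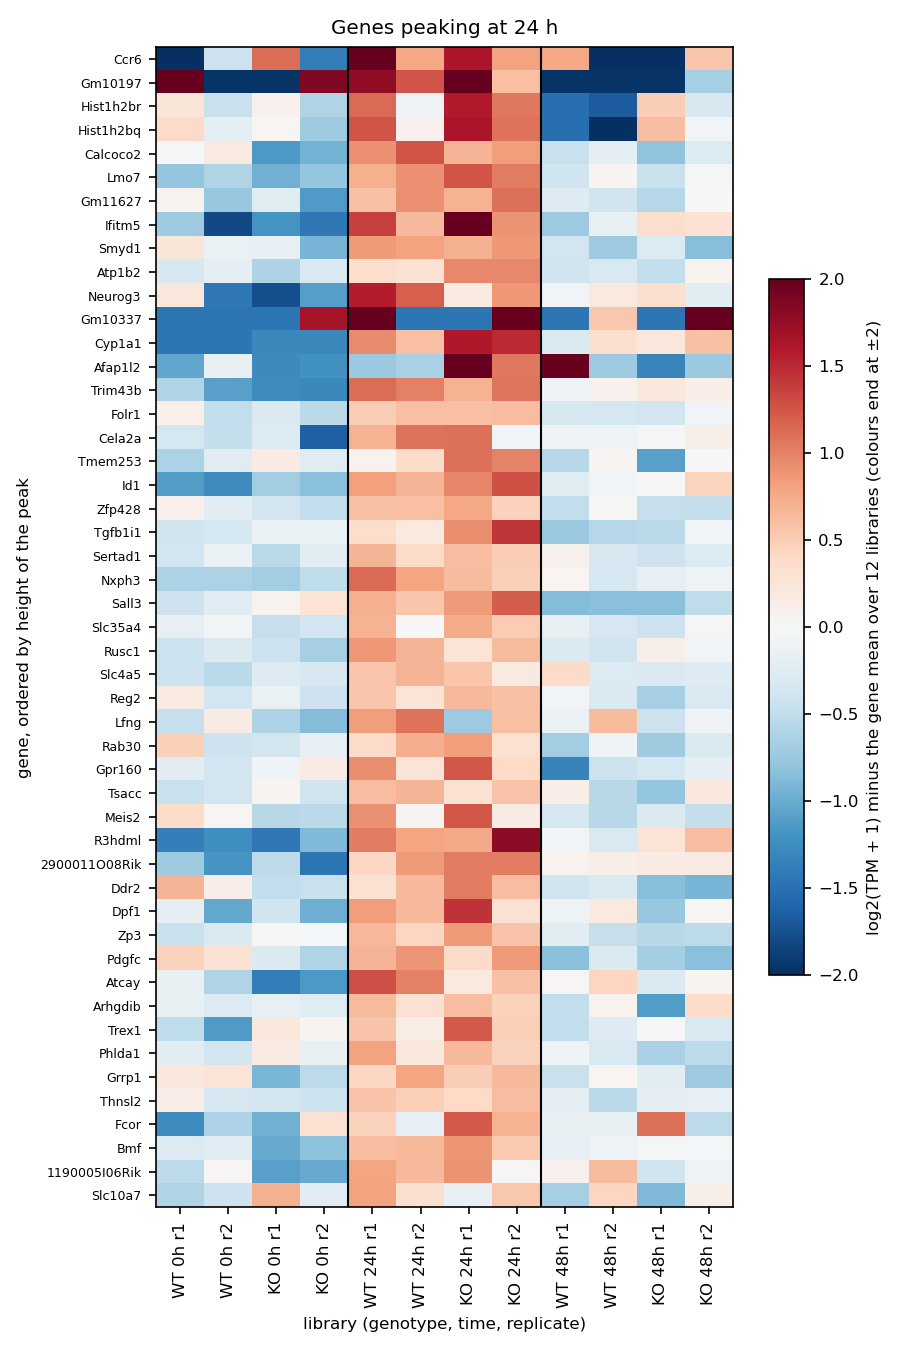
Rows are 49 of the 50 members ordered by height, columns are the 12 libraries grouped by time, and colour is log2(TPM + 1) minus the gene's mean, ending at ±2. The 4 columns at 24 h are mostly red, and rows such as Gm10197, Gm10337, Afap1l2 and Fcor also hold dark cells at other times.

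After the peak most members came back near their starting level. The 48 h median was within 0.5 of the 0 h median for 32 members, at least 0.5 above it for 13 and at least 0.5 below it for 5. The median difference between 48 h and 0 h was 0.08, and over all protein-coding genes at 5 TPM it was -0.02. Among others, Id1, R3hdml and Cyp1a1 had all 48 h libraries above all 0 h libraries. Sall3 had all 48 h libraries below all 0 h libraries. How often this held over all genes was not counted, so nothing is read from it about the members.

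The most abundant member was Id1, the helix-loop-helix inhibitor induced by BMP signals (chr2:152736251-152737410, GRCm38). It stood at 121 and 109.9 TPM at 0 h, 463 and 422 at 24 h and 222 and 252 at 48 h in WT cells, and 162 and 147 TPM at 0 h, 519 and 638 at 24 h and 265 and 359.7 at 48 h in KO cells. The 24 h libraries did not overlap the others in either genotype, and the 48 h level remained above the 0 h level in all libraries. Its 24 h median of 491 TPM lay 1.87 above the 0 h median and 0.92 above the 48 h median on the log2(TPM + 1) scale. Values were higher in KO than in WT cells at each time, by 0.37 ± 0.13 (SE), 0.36 ± 0.13 and 0.43 ± 0.13 on the edgeR log2 scale at 0, 24 and 48 h, and none passed (adjusted p 0.29, 0.234 and 0.245).

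Relatives of Id1 that were not members followed the same course with a lower height. Id3 was at 42.8 to 53.4 TPM at 0 h, 179 to 229.7 at 24 h and 132 to 173 at 48 h, and Id2 at 86.6 to 108 TPM at 0 h, 194 to 277 at 24 h and 142 to 186 at 48 h, with heights of 0.58 and 0.49 below the 0.7 required. For both, edgeR called the step to 24 h (2.0 ± 0.08 and 1.23 ± 0.07, log2 fold change and SE) and the step down to 48 h (-0.48 ± 0.07 and -0.45 ± 0.07). Id4 took the other direction, with 6.26 to 9.42 TPM at 0 h, 4.32 to 6.16 at 24 h and 2.90 to 4.09 at 48 h. In a list of 38 tested Nodal, BMP and TGF-beta genes, 4 were called up and then down (Id1, Id2, Id3 and the protease Furin), against 2.34% over all tested genes. The list's median was -0.06 from 0 h to 24 h and -0.09 from 24 h to 48 h in log2(TPM + 1). From 0 h to 24 h, 9 genes of the list were called up and 12 down. The ligand gene Bmp4 was among those called down. It was at 131 to 179 TPM at 0 h, 20.8 to 45.9 at 24 h and 20.5 to 32.7 at 48 h. Whether the Id genes followed BMP signals here was not tested.

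Other regulators of transcription were present at lower levels. Sall3, a zinc finger factor of the spalt family, had 3.68 and 4.42 TPM at 0 h, 9.21 and 8.21 at 24 h and 2.43 and 2.52 at 48 h in WT cells, and 5.60 and 6.58 TPM at 0 h, 10.3 and 13.5 at 24 h and 2.51 and 3.41 at 48 h in KO cells. All 24 h libraries were above the rest, and the 48 h libraries fell below the 0 h libraries in both genotypes. Neurog3, the proneural factor of the endocrine pancreas, was at 0 to 2.98 TPM at 0 h, 2.85 to 9.08 at 24 h and 1.94 to 3.23 at 48 h, and the lowest 24 h library, KO replicate 1, fell among the others. Meis2, a TALE homeobox factor, read 2.67 to 5.97 TPM at 0 h, 4.65 to 11.8 at 24 h and 2.69 to 3.42 at 48 h and overlapped too. Of its 24 h difference, 55.4% came from a non-coding transcript of 356 bases. This transcript was at 10.4 TPM in KO replicate 1 and at 0 in the other 24 h libraries. The 2810-base coding transcript was at 0.853 to 1.64 TPM at 0 h and 1.22 to 2.30 at 24 h. Zfp428, a zinc finger protein, and Dpf1, a subunit of neural BAF chromatin remodelling complexes, did not overlap. Zfp428 had 66.5 to 101 TPM at 0 h, 128 to 161 at 24 h and 66.5 to 93.5 at 48 h. Dpf1 had 11.8 to 21.8 TPM at 0 h, 31.1 to 69.7 at 24 h and 14.4 to 28.6 at 48 h. Sertad1, a cofactor of E2F and CDK4, was at 9.05 to 12.6 TPM at 0 h, 18.2 to 22.5 at 24 h and 9.99 to 14.5 at 48 h and was also separate.

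Tgfb1i1 (chr7:128246812-128255699), which encodes the focal adhesion adaptor Hic-5, is a target of serum response factor. Its levels were 9.83 and 10.2 TPM at 0 h, 17.3 and 15.4 at 24 h and 7.51 and 8.65 at 48 h in WT cells, and 12.1 and 12.1 TPM at 0 h, 26.3 and 37.6 at 24 h and 8.90 and 12.7 at 48 h in KO cells. The KO libraries lay above the WT libraries at 24 h with no overlap. Of 33 tested genes in a list of serum response factor and YAP targets, 4 were called up and then down (Tgfb1i1, Ajuba, Actb and Actg1). Over all tested genes 2.34% were, and Tgfb1i1 was itself chosen by this course. From 0 h to 24 h, 9 genes of the list were called up and 10 down. The list's median difference was 0.01 to 24 h and -0.25 from there to 48 h. Lmo7, an adherens junction and actin-linked LIM protein (chr14:101729957-101934710), had 16.1 and 18.1 TPM at 0 h, 46.7 and 54.1 at 24 h and 21.2 and 29.3 at 48 h in WT cells, and 14 and 16 TPM at 0 h, 68.6 and 58.6 at 24 h and 20.5 and 27.6 at 48 h in KO cells. Every 24 h library was above every library of the other times.

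Several members are known from work on cell death, autophagy and the handling of nucleic acids. Calcoco2 (chr11:96099326-96111964) is the mouse gene of NDP52, described in human cells as a receptor that links ubiquitin-coated cargo to autophagosomes. It had 31.5 and 37 TPM at 0 h, 62 and 78.3 at 24 h and 23.4 and 28.1 at 48 h in WT cells, and 14.1 and 16.2 TPM at 0 h, 52.3 and 58.3 at 24 h and 18.1 and 26.5 at 48 h in KO cells. KO ESCs started from a lower level than WT ESCs, and both genotypes reached 50 TPM or more at 24 h before returning to under 30 TPM. Bmf, a BH3-only protein that is released from the actin-bound motor complex on loss of attachment and then binds BCL2 proteins, had 15.1 and 15.5 TPM at 0 h, 29 and 29.9 at 24 h and 16.3 and 17.1 at 48 h in WT cells, and 8.67 and 10.00 TPM at 0 h, 34.9 and 27.1 at 24 h and 18.1 and 17.9 at 48 h in KO cells. It too was lower in KO ESCs, and its height of 0.72 was among the smallest. Phlda1, a pleckstrin homology protein induced by FGF and ERK signals, was at 7.46 to 11.2 TPM at 0 h, 11.6 to 18 at 24 h and 5.93 to 9.23 at 48 h. In a list of 42 tested FGF and ERK genes, 10 were called up and 19 down from 0 h to 24 h. Of these 42, 2 (Fgf4 and Phlda1) were called up and then down, against 2.34% over all tested genes. The list's median was -0.34 from 0 h to 24 h in log2(TPM + 1). Trex1, the cytosolic DNA exonuclease, was at 0.982 to 4.06 TPM at 0 h, 3.83 to 9.15 at 24 h and 2.07 to 3.38 at 48 h, with 24 h libraries overlapping the 0 h libraries.

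Receptors, ligands and surface proteins made up another part. Folr1, the folate receptor, was the third most abundant member with 89.9 and 59.2 TPM at 0 h, 119 and 127 at 24 h and 67.1 and 65.5 at 48 h in WT cells, and 68.6 and 57.3 TPM at 0 h, 128 and 129.5 at 24 h and 64.8 and 81 at 48 h in KO cells. Atp1b2, a beta subunit of the sodium pump that also acts in cell adhesion, had 19.6 and 21.5 TPM at 0 h, 31.9 and 30.5 at 24 h and 18.6 and 19.8 at 48 h in WT cells, and 15.9 and 19.9 TPM at 0 h, 49 and 49 at 24 h and 17.2 and 26 at 48 h in KO cells. In TPM the KO libraries were the higher ones at 24 h for Atp1b2, while for Folr1 all 4 lay close together. For Atp1b2 the KO minus WT difference at 24 h was not called (edgeR log2 fold change 0.22 ± 0.13, adjusted p = 0.498). A 711-base non-coding transcript of Atp1b2 was at 21.9 and 11.4 TPM in KO and 1.70 and 0.926 in WT spheroids at 24 h. Pdgfc, a platelet-derived growth factor ligand, was at 5.25 to 12 TPM at 0 h, 11.4 to 16.5 at 24 h and 4.33 to 6.73 at 48 h, and Ddr2, a collagen receptor tyrosine kinase, at 3.34 to 8.82 TPM at 0 h, 6.56 to 11.4 at 24 h and 2.21 to 4.03 at 48 h. Both overlapped between time points, with WT ESCs nearer to the 24 h level than KO ESCs. For Pdgfc, 65.8% of the 24 h difference came from a transcript annotated as subject to nonsense-mediated decay. Lfng, the glycosyltransferase that modifies Notch receptors, was at 1.34 to 3.78 TPM at 0 h, 1.59 to 8.10 at 24 h and 2.19 to 5.66 at 48 h and at its lowest 24 h value in KO replicate 1. None of the 20 tested Notch list genes was called up and then down, and 1 of the 25 tested retinoic acid genes, Rara, was. Over all tested genes the share was 2.34%.

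The secreted proteins Nxph3, a neurexophilin, and R3hdml stood apart at 24 h, with 2.23 to 2.65 TPM at 0 h, 6.25 to 10.4 at 24 h and 3.08 to 4.37 at 48 h for Nxph3 and 0.860 to 1.69 TPM at 0 h, 7.46 to 16.3 at 24 h and 3.05 to 6.66 at 48 h for R3hdml. Reg2, a regenerating islet-derived lectin, was at 33.1 to 50.5 TPM at 0 h, 54.5 to 70.9 at 24 h and 27.8 to 42.8 at 48 h and Zp3, a zona pellucida glycoprotein, at 6.62 to 9.45 TPM at 0 h, 12.9 to 17.7 at 24 h and 6.09 to 7.92 at 48 h. Cela2a, an elastase, was at 2.10 to 6.94 TPM at 0 h, 8.27 to 19.7 at 24 h and 8.02 to 9.49 at 48 h, but 92.4% of its 24 h TPM came from a transcript annotated as a retained intron. Gpr160, an orphan receptor, was at 7.44 to 11.4 TPM at 0 h, 12.2 to 25 at 24 h and 3.38 to 8.66 at 48 h, with no overlap in TPM.

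Cyp1a1, the cytochrome P450 that is the classical target of the aryl hydrocarbon receptor (chr9:57687928-57703824), was nearly silent in ESCs. It had 0 counts in both WT ESC libraries and 6 in each KO ESC library. At 24 h it had 4.29 and 3.15 TPM in WT and 7.27 and 6.71 TPM in KO spheroids, and at 48 h 1.24 to 3.10 TPM. All 24 h libraries lay above the rest in TPM, by a small margin over KO replicate 2 at 48 h, and on CPM they overlapped. Its promoter is the first shown above.

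The next members have varied roles. Smyd1, a muscle lysine methyltransferase, was at 2.06 to 5.88 TPM at 0 h, 8.56 to 9.59 at 24 h and 2.22 to 3.82 at 48 h, and Rusc1, a vesicle adaptor, at 10.2 to 13.5 TPM at 0 h, 20.4 to 31.3 at 24 h and 12.5 to 18.3 at 48 h. Both were separate at 24 h. Atcay, the neuronal protein caytaxin, was at 0.760 to 3.14 TPM at 0 h, 4.24 to 10.2 at 24 h and 2.75 to 5.17 at 48 h, Rab30, a Golgi GTPase, at 2.61 to 5.64 TPM at 0 h, 4.89 to 7.57 at 24 h and 1.92 to 3.51 at 48 h and Arhgdib, a GDP-dissociation inhibitor, at 5.89 to 6.47 TPM at 0 h, 9.31 to 11.9 at 24 h and 2.82 to 9.72 at 48 h. These 3 overlapped between time points. Ifitm5, a bone member of the interferon-induced transmembrane family, was at 0.400 to 1.99 TPM at 0 h, 6.70 to 25.9 at 24 h and 1.97 to 5.26 at 48 h, and Trim43b, of a family expressed in preimplantation embryos, at 0.704 to 1.75 TPM at 0 h, 5.72 to 8.02 at 24 h and 2.99 to 3.84 at 48 h. Both were separate at 24 h and stayed above their 0 h medians at 48 h, by 1.39 and 1.28 in log2(TPM + 1). Trim43b has close copies, between which shared reads could be split.

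Among the members whose role is not described here, Gm11627 was at 6.48 to 16.3 TPM at 0 h, 23.8 to 34.4 at 24 h and 10.05 to 15.4 at 48 h and 2900011O08Rik at 3.32 to 7.21 TPM at 0 h, 14.7 to 23.1 at 24 h and 11.3 to 12.4 at 48 h, and both were separate at 24 h. Tmem253 read 6.53 to 12.1 TPM at 0 h, 11.2 to 23.9 at 24 h and 4.50 to 11 at 48 h and Tsacc 9.01 to 13.1 TPM at 0 h, 15.7 to 20.7 at 24 h and 6.93 to 14.8 at 48 h. Thnsl2, with 4.28 to 6.79 TPM at 0 h, 8.39 to 9.91 at 24 h and 3.87 to 5.35 at 48 h, and Grrp1, with 1.74 to 5.22 TPM at 0 h, 5.86 to 7.91 at 24 h and 2.12 to 4.31 at 48 h, separated in TPM but not on CPM. Fcor (2.05 to 8.01 TPM at 0 h, 5.49 to 16.1 at 24 h and 4.08 to 14.7 at 48 h) and 1190005I06Rik (9.68 to 22 TPM at 0 h, 21.9 to 41 at 24 h and 16 to 34 at 48 h) overlapped.

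**Figure D3:**
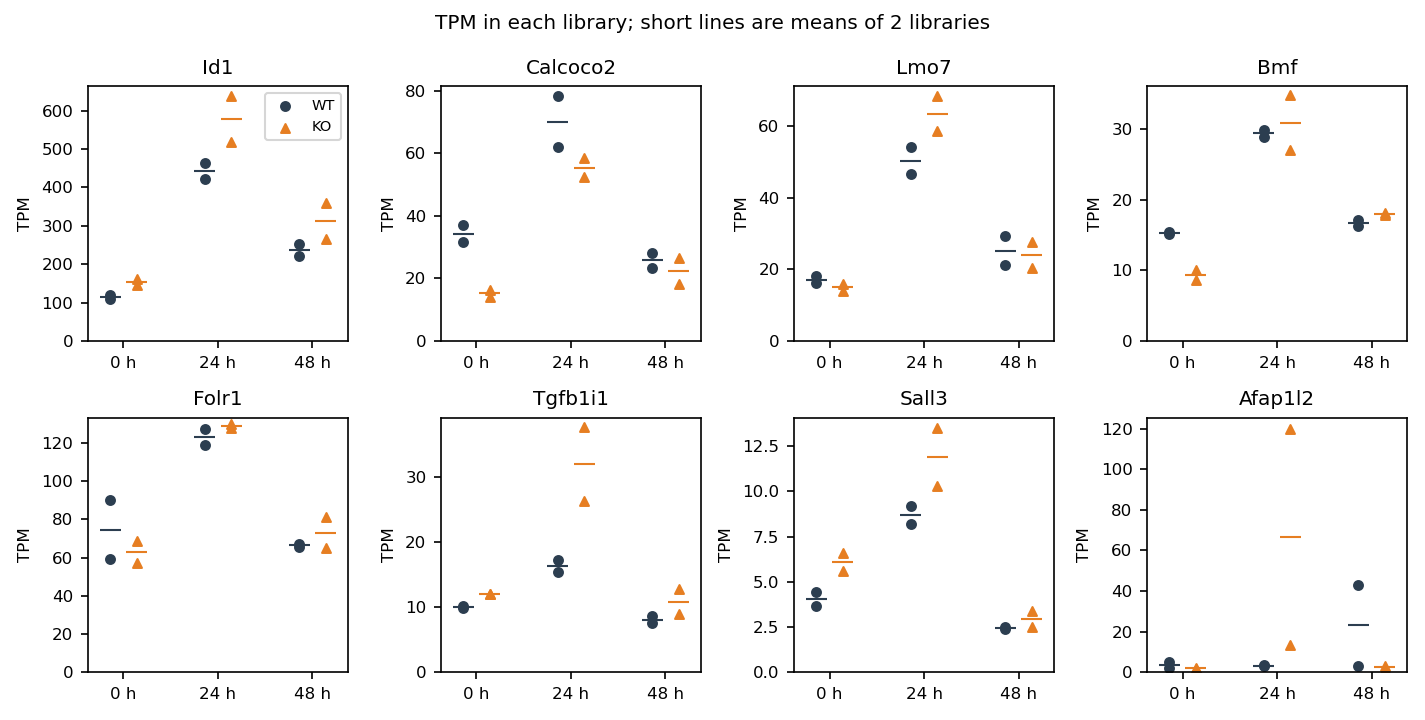
TPM (vertical, from 0) of 8 members in each library at 0, 24 and 48 h, with WT as dark circles, KO as orange triangles and short lines for means of 2 libraries. For 7 of the 8 the 24 h points sit above the rest, whereas Afap1l2 is highest in KO replicate 1 at 24 h, next in WT replicate 1 at 48 h and low in both WT libraries at 24 h.

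Several of the highest peaks rested on few reads or on one short transcript. Ccr6, a chemokine receptor, had the largest height (1.95) with 0 to 7.86 TPM at 0 h, 6.02 to 18.6 at 24 h and 0 to 5.98 at 48 h, but at most 84.5 estimated counts in a library. Its TPM came almost wholly from a non-coding transcript of 369 bases. Gm10197 (a 201-base transcript) and Gm10337 (165 bases) reached at most 32.8 and 13.5 counts. Gm10197 was at 0 to 17.2 TPM at 0 h, 4.93 to 25.9 at 24 h and 0 to 1.47 at 48 h and Gm10337 at 0 to 7.53 TPM at 0 h, 0 to 18.5 at 24 h and 0 to 15.4 at 48 h, with libraries at 0 and wide overlap. Hist1h2bq and Hist1h2br, neighbouring H2B histone genes, carried 381-base transcripts whose TPM values were identical in all 12 libraries, so they are one measurement. Their gene sums were 2.75 to 6.95 TPM at 0 h, 5.53 to 18.1 at 24 h and 0 to 8.41 at 48 h for Hist1h2bq, with overlap.

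Afap1l2, an actin filament-associated adaptor, differed most between its TPM and its counts. Its TPM was 119.6 and 13.4 in KO spheroids at 24 h and 43.3 in WT replicate 1 at 48 h, and at most 5.26 in the other 9 libraries. The counts ran only from 122 to 225. A transcript of 93 bases, Afap1l2-208, held 114, 11.9 and 40.9 TPM in those 3 libraries and 0 in the others, while the 3531-base transcript stayed between 1.2 and 2.5 TPM throughout. On the log2(CPM + 1) scale the height was -0.15.

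Ddr2 changed its most abundant transcript share the most of the members that reached 5 TPM in every 24 h library, together with Tsacc and Hist1h2br. A non-coding transcript of 442 bases made up 34.3% of the TPM of Ddr2 at 0 h, 68% at 24 h and 37.5% at 48 h (mean of 4 libraries). The 8289-base coding transcript was at 1.06 to 4.61 TPM at 0 h, 1.70 to 2.18 at 24 h and 0.764 to 1.44 at 48 h, and its highest values were in WT ESCs at 0 h. For Tsacc the share of its 584-base transcript was 67.4%, 39.8% and 73.4%, and the 481-base transcript held the larger part of the 24 h difference. The share of the 381-base Hist1h2br transcript was 93.6%, 97% and 53.6%.

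In 3 transporters most of the 24 h difference also came from 1 short transcript. In Slc35a4, a sugar nucleotide transporter family member at 49.3 to 66.2 TPM at 0 h, 68.4 to 115 at 24 h and 50.8 to 69.5 at 48 h, the 312-base transcript was at 5.60 to 21.2 TPM at 0 h, 18 to 62.8 at 24 h and 8.80 to 13.5 at 48 h and accounted for 81.3% of the difference between 24 h and the other times. In Slc10a7, a bile acid transporter family member at 18.1 to 46.6 TPM at 0 h, 25.3 to 49.5 at 24 h and 14.8 to 38.1 at 48 h, a 121-base transcript accounted for 67.1%. In Slc4a5, a bicarbonate cotransporter at 7.0 to 8.72 TPM at 0 h, 12.1 to 17.5 at 24 h and 8.49 to 14.1 at 48 h, a non-coding transcript of 751 bases accounted for 68.5%. The heights of these 3 on the CPM scale were 0.19, 0.00684 and 0.2. In Id1, by contrast, 96.5% of the difference came from its 934-base coding transcript, whose share was 97% at 0 h, 96.6% at 24 h and 96.7% at 48 h.

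Over all 50 members, the transcript with the largest gain at 24 h was non-coding in 7, counting retained introns and transcripts subject to nonsense-mediated decay. On log2(CPM + 1) 27 of the 50 kept a height of 0.7 or more, 21 had a height between 0 and 0.7, and 2 (Afap1l2 and Ddr2) were negative. The median effective length of members was 1325 bases against 2135 for all protein-coding genes at 5 TPM.

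**Figure D4:**
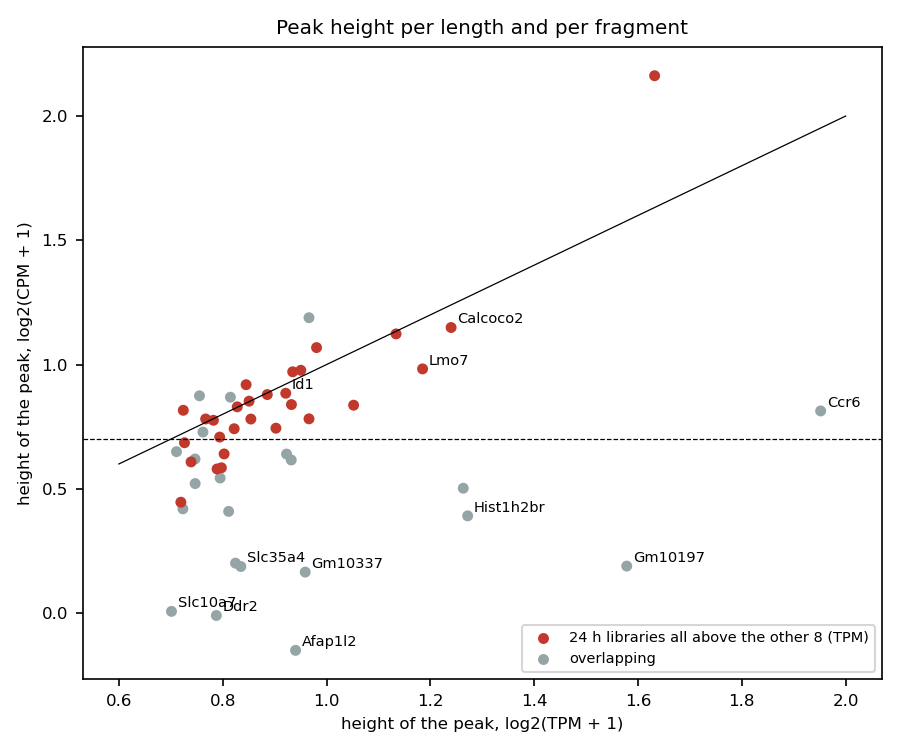
Height of each member's peak on log2(TPM + 1), horizontal, against its height on log2(CPM + 1), vertical, with the line of equality and a dashed line at 0.7 on the CPM scale. Red points are the 28 members whose 24 h libraries lie above the other 8 in TPM and mostly follow the line. Afap1l2, Ddr2, Slc10a7, Slc35a4, Ccr6, Gm10197, Gm10337 and Hist1h2br fall well below it. Of these, Ccr6, Gm10197, Gm10337 and Hist1h2br reached at most 2.50, 0.973, 0.383 and 2.74 CPM in any library, where adding 1 flattens a difference.

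Just inside the rule were Slc10a7 (height 0.701), 1190005I06Rik (0.711) and Bmf (0.719). Just outside it were Pnpla3, a lipid droplet lipase family member (0.699, with 36.7 TPM in KO replicate 1 at 24 h), Rab27a (0.698) and Pcnx (0.696). Taken on the mean of the 2 libraries of one genotype, the rule was met by 25 of the 50 members in WT cells alone and by 35 in KO cells alone. Of the 50, 15 met it in both, 10 in WT cells only, 20 in KO cells only and 5 in neither. Calcoco2, Lmo7, Folr1, Id1, Smyd1, Sall3, Zp3, R3hdml, Trim43b and Bmf were among the 15.

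Of 22 lists of pathway genes drawn up for this tissue, 17 held no member, among them the naive and formative factors, Wnt, cell cycle, p53, cholesterol synthesis, lipid droplet, glycolysis, junction and basement membrane lists. The other 5 held 1 each (Id1, Phlda1, Lfng, Meis2 and Tgfb1i1). Members were 0.521% of the protein-coding genes at 5 TPM, so a short list can easily hold none. Nothing is read from the lists without a member. Over all tested genes 2.34% were called up and then down. Of 701 tested list genes 39 (5.56%) were, with 0 to 4 in any one list. In the naive list these were Fgf4, Sall4 and Dppa2, in the lipid droplet list Fitm2, Lpl and Angptl4, and in the matrix list Sparc, Itga5 and Itgb5. The 39 include the members Id1, Phlda1 and Tgfb1i1, which were chosen by this course. The tested genes were not limited to those at 5 TPM, so nothing is read from the difference between the 2 shares.

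The rule did not compare the genotypes, but the WT and KO values both entered the medians that chose the members, so the genotype differences below are not fully independent of the selection. In ESCs at 0 h, 6 of the 50 members were called between KO and WT by edgeR, where 1.26% of all tested genes were called and 2.1% of the protein-coding genes at 5 TPM at 24 h. Of these, 5 were lower in KO ESCs (Calcoco2, Bmf, Ddr2, Pdgfc and Atcay) and Cyp1a1 was higher. The median KO minus WT difference over the members was -0.18 on the log2 scale, against 0.0136 over the protein-coding genes at 5 TPM. A low value at 0 h in either genotype helps a gene to pass the rule. Taken alone, the WT libraries did not meet it for Cyp1a1, Ddr2 and Pdgfc while the KO libraries did. For Cyp1a1 the WT libraries were the lower ones at 0 h. Its WT mean at 24 h was 3.72 TPM, under the 5 required, and its KO mean was 6.99 TPM. Its genotype differences are therefore drawn in part from values that chose it. Atcay met it in WT cells only, and Calcoco2 and Bmf in both genotypes. At 0 h both WT libraries detected fewer genes at equal depth (17329 and 17409) than both KO libraries (18196 and 18617), which moved with the genotype and whose part was not tested.

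Calcoco2 was lower in KO ESCs, with a KO minus WT difference of -1.29 ± 0.17 (edgeR log2 fold change and SE, adjusted p = 0.00037), with both KO libraries under both WT libraries. The difference was -0.29 ± 0.16 at 24 h (adjusted p = 0.493) and -0.33 ± 0.17 at 48 h (adjusted p = 0.701). At 0 h the difference was -0.72 ± 0.13 for Bmf (adjusted p = 0.0038), -1.08 ± 0.23 for Ddr2 (adjusted p = 0.0204), -0.95 ± 0.21 for Pdgfc (adjusted p = 0.0236) and -1.54 ± 0.31 for Atcay (adjusted p = 0.0126), each with both KO libraries under both WT libraries. These 5 genes had between 5 and 94 tested neighbours within 1 Mb, and 1 neighbour, near Bmf, was itself called at 0 h. Cyp1a1 had 0 counts in both WT libraries, so its difference can only be set against a floor. KO ESCs, with 6 counts in each library, were 2.11-fold above a floor of 3 counts per WT library. The counting error of the KO libraries is not in that ratio. The call came from the edgeR fit to the counts (adjusted p = 0.021) and not from the ratio, and DESeq2 did not call it (adjusted p = 0.0517).

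Each call at 0 h other than Calcoco2 was lost when a single library was left out. Without WT replicate 1 at 0 h, or without KO replicate 2, only Calcoco2 was called, and without KO replicate 1 only Bmf and Calcoco2. Without WT replicate 2 at 0 h Cyp1a1 was lost and the other 5 remained. With average transcript lengths as offsets only Calcoco2 remained, and limma on log2(TPM + 1) called no member, with 20 genes called in all.

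In spheroids at 24 h, 1 of the 50 members was called, where 1.46% of all tested genes were. Tgfb1i1 was higher in KO spheroids by 0.96 ± 0.20 (adjusted p = 0.0155), after 0.22 ± 0.20 at 0 h (adjusted p = 0.846) and before 0.48 ± 0.20 at 48 h (adjusted p = 0.548). Tgfb1i1 met the rule in KO cells alone and not in WT cells alone, so its 24 h difference is drawn in part from values that chose it. It was called without KO replicate 1 at 24 h, and not called without either WT replicate at 24 h. Without KO replicate 2 at 24 h, Atcay, Lfng and Slc10a7 were called beside it, in a setting where 12.4% of all tested genes were called. At 48 h 0 of the 50 members were called by edgeR, where 0.671% of all were, and 1 was called by DESeq2. In edgeR 3 of the 50 members had an unadjusted p under 0.05, as did 1349 of the 17424 tested genes.

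**Figure D5:**
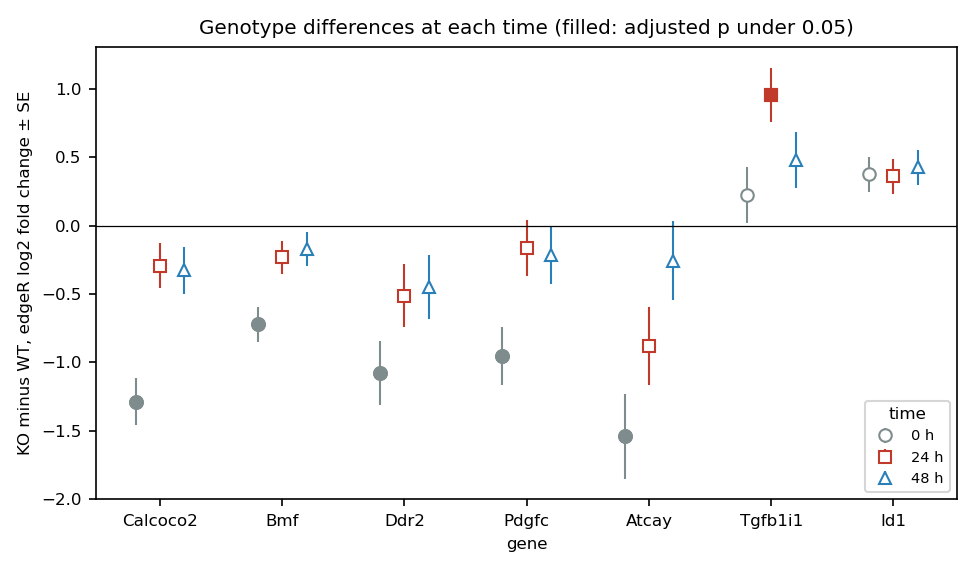
KO minus WT edgeR log2 fold change with its SE for 7 members at 0 h (circles), 24 h (squares) and 48 h (triangles), from 2 libraries a group, with filled symbols for an adjusted p under 0.05. Calcoco2, Bmf, Ddr2, Pdgfc and Atcay lie lowest at 0 h, Tgfb1i1 lies highest at 24 h, and Id1 lies between 0.36 and 0.43 at all 3 times.

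The height of the peak itself was compared between genotypes as the 24 h mean minus the mean of 0 h and 48 h, KO minus WT. No member was called by edgeR (0 of 50, where 0.0172% of all tested genes were), and DESeq2 called none. Of the 17424 tested genes 890 had an unadjusted p under 0.05 in edgeR, and 3 of the 50 members did. Those 3 were Calcoco2 (0.52 ± 0.20), Tgfb1i1 (0.61 ± 0.24) and Cyp1a1, with adjusted p = 0.923 for each. Tgfb1i1 and Cyp1a1 met the rule in KO cells alone and not in WT cells alone. For Id1 the difference in height was -0.04 ± 0.16, for Lmo7 0.13 ± 0.15 and for Sall3 0.02 ± 0.21. Over the 50 members the median SE of this difference was 0.378, with 2 libraries a group. The step from 0 h to 24 h alone, tested after the values at 0 h were seen, was not called between genotypes for any member in edgeR. An unadjusted p under 0.05 was reached by 7 of the 50 members and by 1029 of the 17424 tested genes. The values of this step also chose the members. Calcoco2 had the smallest adjusted p, 0.509, with a step larger in KO cells by 0.996 ± 0.24.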

How the data were processed

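RNA was sequenced from WT and CIDEA KO ESCs and spheroids (2 libraries per group, 6 groups). Per the labels, reads were trimmed with Trimmomatic 0.33 and quantified with kallisto 0.43.1 by the authors, who deposited estimated counts per transcript, which are not normalised, and TPM, which kallisto scales for effective length and depth. The transcript set was not given in the sources used here. Of 115270 transcripts, 113580 (98.5%) matched GENCODE M21 (GRCm38). Deposited TPM values and estimated counts were summed per gene, counts rounded to whole numbers. Where genes are near copies, kallisto splits their common reads, and their values are uncertain.

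Genes were fitted with edgeR 4.0.16 (R 4.3.3), TMM, filterByExpr and robust quasi-likelihood, 1 mean per group over 12 libraries (17424 genes, Benjamini-Hochberg over all). SE is the log2 fold change over the root of F. CPM used TMM library sizes. The fit was tested on simulated data. Alternatives used DESeq2 1.42.0 and limma 3.58.1. Depth was 29 to 38.5 M, with a floor of 3 counts at 0.0779 to 0.1035 CPM, covering counting error only. Replicates are called independent samples in the study's legend. They did not deviate together by number (correlations 0.0033, 0.051 and -0.0094), so no block was used in the fit reported.

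The members and lists were chosen with earlier results of these data known. Genes named are the 20 highest peaks, the 10 most abundant members, members in the lists (up to 4 each), members called between genotypes, those nearest the threshold, 3 with the largest change of transcript share, and Cidea. Other members are named to account for the rest, 1 member is not reported here, and other genes of the lists where they were called up and then down. Those and the Id relatives were chosen after their values were seen.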

Additional observations from a re-analysis of the deposited data

How the results depend on the processing

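The rule gave 50 genes. It gave 9 with a height of 1, 89 with a 24 h level of 1 TPM or more, 94 with no filter on TPM, and 165 from the KO libraries alone, against 71 from the WT libraries alone, 60 on means, 66 on log2(TPM + 0.1) and 34 on log2(CPM + 1), of which 27 were among the 50. Leaving out 1 library gave 50 to 102 genes, of which 34 to 49 were among the 50. The extremes of shared genes were KO replicate 1 at 24 h (34 of 50) and KO replicate 2 at 48 h (49 of 50), and without WT replicate 2 or KO replicate 2 at 24 h the rule gave 102 and 92 genes.

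Members called at 0 h, 6 in the fit reported, numbered 1 with average transcript lengths as offsets and 0 with limma on log2(TPM + 1) and on log2(TPM + 0.1), and 1 to 7 with 1 library left out. The single member called at 24 h became 2 with no filter on low counts, and 0 with average transcript lengths, with the 4 libraries compared alone, and with limma on either TPM scale. With 1 library left out it was 0 to 4. At 48 h, 0 members became 2 with no filter and 1 with DESeq2, and 0 to 1 with 1 library left out. For the peak by genotype the count was 0 to 1 with 1 library left out, the 1 being Zfp428 without KO replicate 2 at 24 h, where 6.43% of all tested genes were called. With a replicate block 6, 1, 0 and 0 members were called in the 4 tests, as without it. The causes of these changes were not tested. No called member reversed its direction under any alternative run. With 2 libraries a group, low members (11 with under 100 counts on average) limit what can be shown.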
